A study of Danio rerio with 57 samples.

Results

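The step from 3 to 3.5 h post fertilisation (hpf) was followed in the H3K9me3 regions of whole zebrafish embryos. H3K9me3 is histone H3 with 3 methyl groups on lysine 9. It was mapped by CUT&RUN, where a nuclease tethered by an antibody frees the DNA of the marked nucleosomes. The members are all regions of the lists at these times on chromosomes 1 to 25, after touching regions of a list were merged: 29303 regions at 3 hpf and 39907 at 3.5 hpf, together 69210 of the 174771 merged regions in the 6 lists of the series. Both groups are embryos of the AB genotype with no treatment stated, and the labels give no age other than the time after fertilisation. Each time has 3 H3K9me3 libraries made with the antibody Abcam 8898 and spiked with E. coli DNA. Beside them stand 2 IgG libraries at 3 hpf and 1 at 3.5 hpf, in which the antibody has no chromatin target. The authors deposited a single region list per time. How the 3 libraries were combined is not stated in these sources. At 2.5 and 4.5 hpf a second experiment with 3 H3K9me3 antibodies also has libraries, and which libraries entered those 2 lists is not stated, so values from them may rest on other antibodies as well. Each time is therefore a single pooled list, no spread between embryos can be given, and no difference below was tested between times. The read depth is unknown, so a longer list can come from more of the mark or from deeper sequencing, which cannot be told apart here. The IgG libraries were not analysed here, and no background level stands beside the lists. A whole embryo holds all its cells, so a mark in more cells and more of the mark per cell cannot be told apart either.

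H3K9me3 is placed by methyltransferases of the SUV39H and SETDB families and is bound by HP1 proteins, which recruit more methyltransferase, so that marked chromatin can spread along the fibre and neighbouring domains can meet. In many animals the mark is sparse in the early embryo, and constitutive heterochromatin over repeats is built up during the first divisions. In zebrafish the major wave of zygotic genome activation, when transcription from the embryo's own genome starts broadly, falls in the blastula stages sampled here. These are background statements, and none of them is a result of these lists.

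Most regions of the 3 hpf list were found again, and close to as many regions were new at 3.5 hpf as were found again. Of the 29303 regions at 3 hpf, 21916 (74.8%) had at least 1 bp covered at 3.5 hpf and are called kept. The other 7387 (25.2%) had none and are called lost. Of the 39907 regions at 3.5 hpf, 19167 (48.0%) had no overlap with a 3 hpf region and are called new. The midpoint of a region, a measure that does not depend on its width, was covered at 3.5 hpf in 69.6% of the 3 hpf regions, while the 3.5 hpf list covered 5.29% of the 25 chromosomes. Few cases lay at the edge of these calls: 246 kept regions shared under 100 bp with the later list, and 205 new regions lay under 100 bp from an earlier one.

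The kept regions fell into 3 kinds. A total of 18580 (63.4% of the 3 hpf list) were met by a single 3.5 hpf region that overlapped no other earlier region, a pairing called one to one. Another 2956 (10.1%) lay in a 3.5 hpf region that joined several earlier ones, and 380 (1.30%) were split over several later regions. The joined regions, with some of those counted as split, formed 1438 fused regions at 3.5 hpf, 3.60% of that list and 6.93% of the later regions with any overlap. This second share depended on which regions were taken, with 2.93% in the 50% of each list with the lowest p-values and 0.500% among regions that the authors named primary. Both lists were cut first in these settings, so a fusion counts only where several earlier regions were left in, which can lower the share. In the full lists 54.7% of fused regions held a part named primary, against 29.5% of all 3.5 hpf regions. Fused regions were few in number but made up 11.8% of the covered length at 3.5 hpf, with a median width of 4778.5 bp. New regions were narrower than the one-to-one regions at 3.5 hpf, with a median of 657 bp against 1654 bp, and made up 25.03% of the covered length.

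In length, the covered sequence on the chromosomes was 44.5 Mb at 3 hpf and 71.1 Mb at 3.5 hpf. Of the 3 hpf length, 34.9 Mb (78.5%) was still covered. Length no longer covered came to 9.60 Mb, of which 5.28 Mb lay in lost regions and 4.32 Mb had been trimmed from kept ones. The gain was 36.2 Mb. Its largest portion, 17.8 Mb (49.2%), lay in new regions, and 14.7 Mb (40.7%) lay on the sides of one-to-one regions. Fused regions held 3.34 Mb (9.24%) of the gain, of which 1.86 Mb filled the stretches between the regions they joined. Filling between neighbours thus made up 5.14% of the gained length, a small portion next to the outward growth of single regions and the appearance of separate ones. Among primary regions alone, regions overlapping an earlier one held 15.3% of the gain, against 50.8% in the full lists. With primary regions alone, a later region that overlapped only earlier regions not named primary counts as new, which lowers that share.

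**Figure D1:**
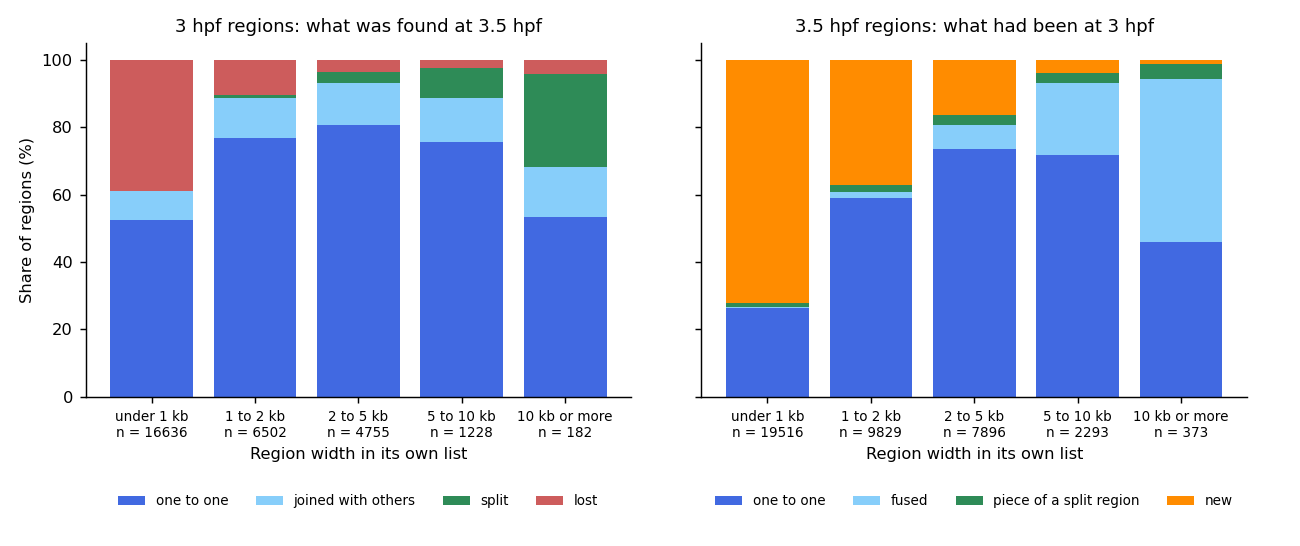
Left, the share of 3 hpf regions (%) in each width class that were one to one, joined, split or lost at 3.5 hpf. Right, the share of 3.5 hpf regions (%) that were one to one, fused, pieces of a split region or new; n is the number of regions, 1 pooled list per time. Lost regions make up 39.0% of the narrowest class on the left and 2.36% of the class from 5 to 10 kb, and new regions go from 72.3% to 3.84% over the same classes on the right.

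Whether a region was kept went with its width. Of the 16636 regions under 1 kb at 3 hpf, 61.0% were kept. The share was 89.5% of the 6502 regions from 1 to 2 kb, 96.2% of the 4755 from 2 to 5 kb and 97.6% of the 1228 from 5 to 10 kb. A wide region can meet 1 bp of another list more easily than a narrow one, but the midpoint measure had the same order, with 56.4%, 82.8%, 91.4% and 93.5% in these classes. The 182 regions of at least 10 kb stood apart from this order: 95.6% were kept, their midpoint was covered in 81.9%, and 27.5% of them were split, against 9.12% of those from 5 to 10 kb. Of the length of these widest regions 77.8% was still covered, against 90.1% for the class from 5 to 10 kb. The longest region at 3 hpf spanned 67075 bp after merging and the longest at 3.5 hpf 39902 bp, so the top of the width range was shorter at the later time while the number of regions of at least 10 kb went from 182 to 373.

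The deposited signal and region names, which played no role in the calls, differed between the fates in the same way. The labels and files do not give the unit of the signal, and it was compared only within a list. Lost regions had a median signal of 50.4, one-to-one regions 129.2, joined regions 164.15 and split regions 427.05. When the 3 hpf list was ordered on signal and divided into 5 equal groups, the kept share was 44.5%, 64.6%, 79.6%, 90.3% and 94.9%. Signal and width are not separate here, since the median width went from 500 bp in the lowest group to 3260 bp in the highest. Regions that the authors named primary were lost in 3.59% of 6259 cases and regions named secondary in 31.1% of 23044, a distinction that no header explains. Within a width class the gap was smaller but had the same direction: from 2 to 5 kb, 2.38% of primary and 6.63% of secondary regions were lost, and under 1 kb 16.9% of 177 and 39.2% of 16459. Widths of exactly 500 bp, which made up 8.90% of the 3 hpf list, were found in 17.5% of lost and 6.15% of one-to-one regions.

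Regions that were matched one to one were mostly longer at the later time. Of the 18580 pairs, 14330 (77.1%) were longer, 4156 (22.4%) were shorter and 94 had the same length. The median ratio of the later to the earlier length was 1.31, with quartiles of 1.02 and 1.87. A pair was called widened from 1.5 times, which held for 7350 pairs (39.6%), and narrowed at the inverse of that ratio or less, which held for 1011 (5.44%). From 1.2 times the widened share was 58.8%, and from 2 times it was 21.9%. Near the threshold lay 982 pairs with a ratio from 1.4 to 1.5 and 865 from 1.5 to 1.6.

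The widening was spread over both sides. The left edge lay a median of 161 bp further out and the right edge 146 bp, and both edges lay further out in 50.3% of pairs. Both edges lay further in for 8.50%. The relative change was larger for narrow regions: the median ratio was 1.59 for pairs under 1 kb at 3 hpf, 1.26 from 1 to 2 kb, 1.15 from 2 to 5 kb, 1.07 from 5 to 10 kb and 1.01 for the 97 pairs of at least 10 kb. The median gain in base pairs differed much less, with 351, 366, 459, 436 and 217 bp in these classes. Pairs taken as narrow at 3 hpf are chosen on the earlier width, which favours a gain. When pairs were classed by the mean of both widths instead, a choice made after the values were seen, the median gains were 147.5, 514.5, 842, 800 and 943 bp. The median ratio then peaked at 1.46 in the class from 1 to 2 kb and was 1.26 in the narrowest class and 1.09 in the widest, so the order of the narrowest class depended on how width was taken.

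The 5 pairs with the largest gain, at most 1 per chromosome, show the range of such cases. At chromosome 7, 8175822 to 8187158, a 477 bp region at 3 hpf lay inside an 11337 bp region at 3.5 hpf, and 92.4% of the later span was covered at 4 hpf. At chromosome 9, 22251783 to 22264505, the earlier region had 1421 bp and the later 12723 bp. At chromosome 4, 64962643 to 64973936, the lengths were 1632 and 11294 bp. These 3 spans had been covered over 11.96%, 5.98% and 2.32% at 2.5 hpf and over 4.21%, 11.2% and 14.5% at 3 hpf. The other two had more cover at 2 and 2.5 hpf: at chromosome 3, 52240776 to 52256600, coverage went from 40.2% and 42.8% at 2 and 2.5 hpf to 20.1% and then 100% in the lists compared, and at chromosome 10, 12344950 to 12362375, it was 18.3%, 47.1%, 33.0% and 100%. In 3 of the 5, those on chromosomes 7, 3 and 10, the span was covered less at 3 hpf than at 2.5 hpf. The 5 were chosen on their gain from 3 hpf, which favours low cover at that time, and the libraries behind the 2.5 hpf list are not stated.

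Fusion took place mostly over short gaps. The 3 hpf list had 29278 gaps between neighbouring regions, and a single 3.5 hpf region bridged 1577 (5.39%) of them, reaching into both flanking regions. It bridged 54.9% of the 1518 gaps under 1 kb, 25.3% of the 1990 gaps from 1 to 2 kb, 6.16% of the 3605 from 2 to 5 kb and 0.459% of the 3702 from 5 to 10 kb. A bridged gap had a median length of 945 bp and an unbridged one 20072 bp, and the longest bridged gap was 12291 bp. Most fused regions joined a pair of earlier ones: 1317 joined 2, 104 joined 3 and 17 joined 4 or more. Among regions of at least 10 kb at 3.5 hpf, 181 of 373 (48.5%) were fused, and among those from 5 to 10 kb 21.5%.

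The fused region that joined the most earlier ones lay near the end of the long arm of chromosome 4, at 77288222 to 77319727. Its 31506 bp lay over 5 regions of 3 hpf that covered 59.6% of it, and the span had 11.6% coverage at 2 hpf, then 44.9% at 2.5 hpf. A 37490 bp region at chromosome 14, 13579246 to 13616735, joined 4 regions covering 62.7% of it, and a 33215 bp region at chromosome 2, 12779469 to 12812683, joined 4 covering 77.2%. The regions at chromosome 19, 31095927 to 31112314, and chromosome 7, 9881 to 26160, also joined 4 each, with 84.5% and 67.0% already covered at 3 hpf. At 4 hpf these 4 spans outside chromosome 4 were covered over 99.9% to 100%, while the chromosome 4 span was covered over 84.5%. At 4.5 hpf the chromosome 14 span was covered over 0%, the chromosome 4 span over 68.3% and the others over 100%. Chromosome 14 is among those that stand apart by signal in the 4.5 hpf list, as described below.

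New regions lay nearer to earlier ones than the unmarked sequence as a whole. The distance from a new region to the nearest 3 hpf region had a median of 10719 bp and quartiles of 3657 and 27814.5 bp. Within 5 kb lay 5994 new regions (31.3%), and 6406 (33.4%) lay 20 kb or more away. Of the sequence not covered at 3 hpf, 17.5% lay within 5 kb of a region and 53.1% lay 20 kb or more away. The share of new regions within 5 kb depended on the regions taken, and the unmarked share, computed for these settings after the data were seen, moved with it: 16.2% against 8.23% with regions of at least 1 kb, 18.5% against 9.28% in the lowest-p 50% and 9.41% against 4.32% among primary regions. New regions were above the unmarked sequence by 1.79 times in the full lists. The ratio was 1.92 with equal list lengths, where only the later list was cut, and 1.65 after merging within 1 kb. It was 1.97, 1.99 and 2.18 in the settings above, where both lists were cut. A later region over a left-out earlier region counts as new there, and the left-out sequence counts as unmarked. Among primary regions 7783 counted as new, against 2024 in the full lists. The ratios with both lists cut therefore cannot show whether regions with no earlier overlap lay nearer.

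The share of unmarked sequence that was covered at 3.5 hpf was lower with each step away from an earlier region. Within 1 kb of a 3 hpf region it was 26.6%, almost all of it in regions that overlapped the earlier one. It was 8.57% from 1 to 2 kb, 3.80% from 2 to 5 kb, 2.19% from 5 to 10 kb, 1.58% from 10 to 20 kb, 1.06% from 20 to 50 kb and 0.574% beyond 50 kb. Extension of earlier regions did not reach past 20 kb. For new regions alone the share was 1.09% within 1 kb, where a later region is likely to touch the earlier one and so not count as new, 2.52% from 1 to 2 kb, 2.76% from 2 to 5 kb and 0.574% beyond 50 kb. Past 5 kb the share held by new regions was lower in each class than in the class before it.

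**Figure D2:**
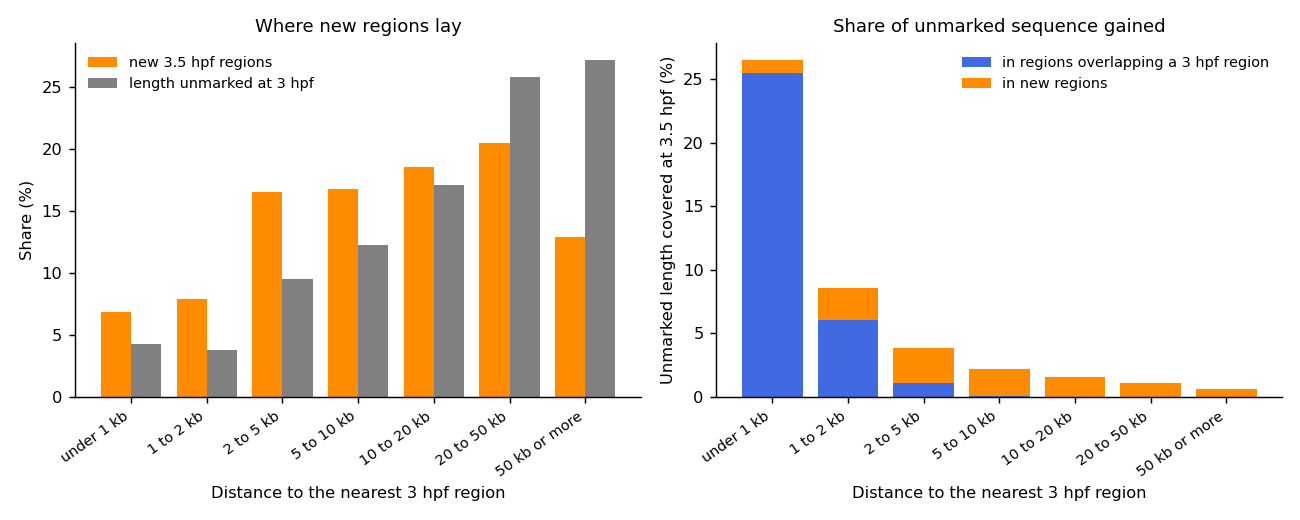
Left, the share (%) of the 19167 new regions and of the unmarked length in each class of distance to the nearest 3 hpf region. Right, the share (%) of the unmarked length in each class that was covered at 3.5 hpf, split into regions overlapping an earlier one and new regions; it goes from 26.6% within 1 kb to 0.574% beyond 50 kb.

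New regions near and far from earlier ones differed in deposited signal more than in the share found at 4 hpf. The median signal was 73.27 for new regions under 1 kb from an earlier one and 46.27 for those 50 kb or more away, and the share named primary was 12.7% and 6.66%. The share found again at 4 hpf was 72.4% and 73.5%. The near ones were also wider, with a median of 761.5 bp against 623 bp. Signal went with width among new regions, with medians of 42.7 under 1 kb and 236 from 2 to 5 kb, so signal and width are not separate here. Of the near ones, 20.9% had been seen at 2 or 2.5 hpf, against 9.08% of the far ones. The new regions most distant from any earlier region lay 396187 to 449091 bp away, at chromosome 21, 28273127 to 28273526, chromosome 22, 9698710 to 9699203, chromosome 3, 41795852 to 41797489, chromosome 20, 28551311 to 28551810, and chromosome 2, 37754064 to 37754542. They were 400 to 1638 bp long, and those on chromosomes 21, 22 and 20 were covered over 91.7% or more at 4 hpf, whereas those on chromosomes 3 and 2 were not covered then.

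Lost and new regions differed in the lists at other times, which the calls did not use, but the comparison is uneven. The 4 hpf list comes next after that of the new regions, while lost regions were chosen as absent from the list in between. Part of the difference at later times, and in regions found in no other list, can follow from this choice alone. New regions were likewise chosen as absent from the 3 hpf list, which lies between them and the earlier lists. Of the 19167 new regions, 14148 (73.8%) were found at 4 hpf, against 92.2% of the one-to-one regions of the 3.5 hpf list. Of the 7387 lost regions, 2661 (36.0%) were found at 4 hpf, against 91.8% of one-to-one regions of the 3 hpf list. The 4 hpf list covered 6.68% of the chromosomes. Regions found in no other list of the series numbered 3685 (49.9%) among the lost and 3700 (19.3%) among the new. Earlier presence was similar for both: 16.1% of lost and 13.1% of new regions had been in the 2 or 2.5 hpf list, against 52.1% of one-to-one regions at 3 hpf. A total of 2204 new regions (11.5%) overlapped the 2.5 hpf list by at least 1 bp while absent from the 3 hpf list. Whether the mark left and came back at these places was not tested.

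At 4.5 hpf, 49.0% of new, 23.8% of lost and 72.1% of one-to-one regions of 3 hpf were found. In that last list chromosomes 1 and 10 to 14 stand apart, with a median signal of 652.5 against 126.3 on the other 19 chromosomes, where at 4 hpf the medians were 102 and 107.1. On the other 19 chromosomes the shares were 49.5%, 22.98% and 74.3%. At 3 and 3.5 hpf the medians of the 2 sets were 113.52 against 111 and 101 against 103.4, so these chromosomes did not stand apart by signal in the lists compared here.

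Width again went with the share found at 4 hpf among the new regions below 10 kb. Those under 1 kb, 14109 in number and 73.6% of all new regions, were found at 4 hpf in 67.0% of cases. From 1 to 2 kb the share was 91.4%, and from 2 to 5 kb it was 95.9%. It was 97.7% of the 88 from 5 to 10 kb and 80% of the 5 of at least 10 kb. Found means an overlap of at least 1 bp, which a wide region meets more easily, and no midpoint measure was made here. Lost regions had no such order above 1 kb: 34.4% of those under 1 kb were found at 4 hpf, 47.2% from 1 to 2 kb, 50.8% from 2 to 5 kb and 48.3% of the 29 from 5 to 10 kb.

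Wide regions that were lost or new were rare. Only 37 regions of at least 5 kb at 3 hpf were lost, on 17 chromosomes. Of these, 27 had been in the 2.5 hpf list, 17 were in the 4 hpf list and 19 were in neither later list. The widest, at chromosome 12, 12200808 to 12219969, had 19162 bp, was covered over 76.4% at 2.5 hpf, not at all at 3.5 hpf and over 100% at 4 hpf, and the nearest 3.5 hpf region lay 10285 bp away. A 10627 bp region at chromosome 9, 19972635 to 19983261, was also covered in full at 4 hpf, but over 0% at 4.5 hpf. The lost regions at chromosome 16, 15741794 to 15756753, chromosome 6, 20018275 to 20031230, and chromosome 1, 52340576 to 52352277, were 11702 to 14960 bp long. They had been covered over 82.8%, 29.6% and 29.9% at 2.5 hpf and were covered over 0% at 4 and 4.5 hpf. Wide lost places were thus of at least 2 sorts, those found again at 4 hpf and those missing from 3.5 hpf on.

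Of the 93 new regions of at least 5 kb, 45 had been in the 2.5 hpf list and 90 were in the 4 hpf list. One-to-one regions from 5 to 10 kb at 3.5 hpf were in those lists in 88.0% and 98.4% of cases. Of the 93, 21 lay on chromosome 4 from 28 Mb, which held 6.15% of all new regions. Among all 3.5 hpf regions, that area held 232 of the 2293 from 5 to 10 kb and 36 of the 373 of at least 10 kb. The widest new region, at chromosome 4, 32838911 to 32853772, had 14862 bp, with nothing listed at 2, 2.5 or 3 hpf and full coverage at 4 and 4.5 hpf. It lay 1241 bp from the nearest 3 hpf region. At chromosome 25, 26137352 to 26149800, a 12449 bp region had no earlier coverage and was covered over 84.1% at 4 hpf. At chromosome 20, 55138944 to 55152286, 11.4% of the span had been covered at 2.5 hpf, and at chromosome 13, 15521646 to 15531596, 9.11%. The region at chromosome 10, 12057882 to 12070706, had been covered over 48.1% at 2.5 hpf. The spans on chromosomes 20, 10 and 13 were covered over 100%, 87.3% and 52.4% at 4 hpf. At 4.5 hpf the values were 74.2%, 0% and 0%, in a list where chromosomes 10 and 13 stand apart by signal. In the authors' deposited lists these 5 regions had p-values between 0.983 and 0.990 and none was named primary. High deposited values were common: the median was 0.673 for all new regions and 0.502 for the whole 3.5 hpf list. The 5 fused regions named above had 0.589 to 0.983, and none of them was named primary either. Of the 93, 57 were primary, against 10.6% of all new regions. By width, the primary share of new regions was 0.787% under 1 kb, 68.1% from 2 to 5 kb and 64.8% from 5 to 10 kb. What that p-value tests is not stated in the labels or files.

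Across the 25 chromosomes the kept share, the share of new regions and, outside chromosome 4, the fold of covered share differed little. Fused and narrowed shares differed more. Covered share was higher at 3.5 hpf on each chromosome, by 1.49-fold on chromosome 17 to 1.65-fold on chromosome 7 and 2.06-fold on chromosome 4. The kept share ranged from 71.4% on chromosome 9 to 77.2% on chromosome 19, and the share of new regions from 44.4% on chromosome 13 to 51.9% on chromosome 4. Widened pairs made up 34.8% on chromosome 9, 43.4% on chromosome 16 and 52.7% on chromosome 4. Of the overlapping later regions, 4.43% were fused on chromosome 11, 8.28% on chromosome 3 and 12.7% on chromosome 4. Narrowed pairs made up 3.00% on chromosome 5 and 8.71% on chromosome 21, the lowest and highest shares. Chromosome 4 therefore lay inside the range of the others in its kept share, 74.8%, just above it in new regions, and well above it in the fold of covered share, in widening and in fusion. Its median width was the lowest of the 25 at 3 hpf, 771.5 bp, and the highest at 3.5 hpf, 1212 bp.

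**Figure D3:**
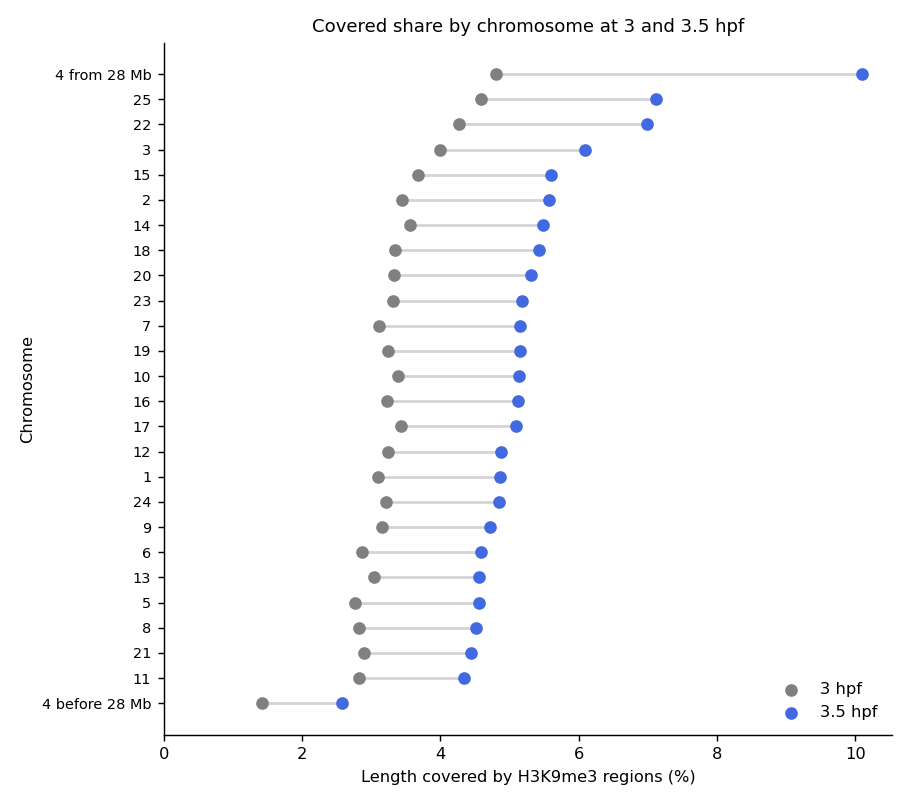
Share of each chromosome's length (%) covered by H3K9me3 regions at 3 hpf (grey) and 3.5 hpf (blue), 1 pooled list per time, with chromosome 4 drawn as the parts before and from 28 Mb. The part from 28 Mb goes from 4.81% to 10.1%, the longest line, and the part before 28 Mb has the lowest values, 1.42% and 2.58%.

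The long arm of chromosome 4 was taken as everything from 28 Mb. This arm is known as heterochromatic, late-replicating and rich in repeats. It held 1674 regions at 3 hpf and 2270 at 3.5 hpf. The number of regions grew by the same factor there as on the rest of the chromosomes, 1.36-fold in both, and the kept share was the same within 0.1 percentage points, 74.9% against 74.8%. Covered length, in contrast, was 2.10-fold higher on the arm and 1.57-fold higher on the rest. New regions made up 51.9% of the later list on the arm and 47.8% elsewhere. The arm thus had about the same growth in number and more growth in length. Its regions had a median width of 771 bp in the earlier list, then 1235 bp, against 854 and 1017 bp on the rest.

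One-to-one regions on the arm were called widened in 497 of 908 pairs (54.7%) and in 38.8% of 17672 pairs elsewhere, with median ratios of 1.61 and 1.30. The arm exceeded the rest in each width class below 10 kb. Under 1 kb, 66.4% of arm pairs and 53.7% of the others were widened. From 1 to 2 kb the shares were 54.3% and 34.1%, from 2 to 5 kb 39.3% and 19.7%, and from 5 to 10 kb 12.5% of 48 pairs and 6.48% of 879. The arm held only 4 pairs of at least 10 kb, and none of these was widened.

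Fusion was more frequent on the arm as well. Of its overlapping later regions 13.7% were fused, against 6.56% elsewhere, and 19.4% of its 3 hpf regions were joined with others, against 9.52%. Gaps of the same length were also bridged more often there: 67.0% against 54.0% under 1 kb, 36.4% against 24.3% from 1 to 2 kb, and 17.2% of 279 against 5.23% of 3326 from 2 to 5 kb. Regions of at least 5 kb and under 10 kb numbered 68 on the arm at 3 hpf and 232 at 3.5 hpf, 3.41 times as many, against 1.78 times on the rest. Those under 1 kb went from 1002 to 981.

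**Figure D4:**
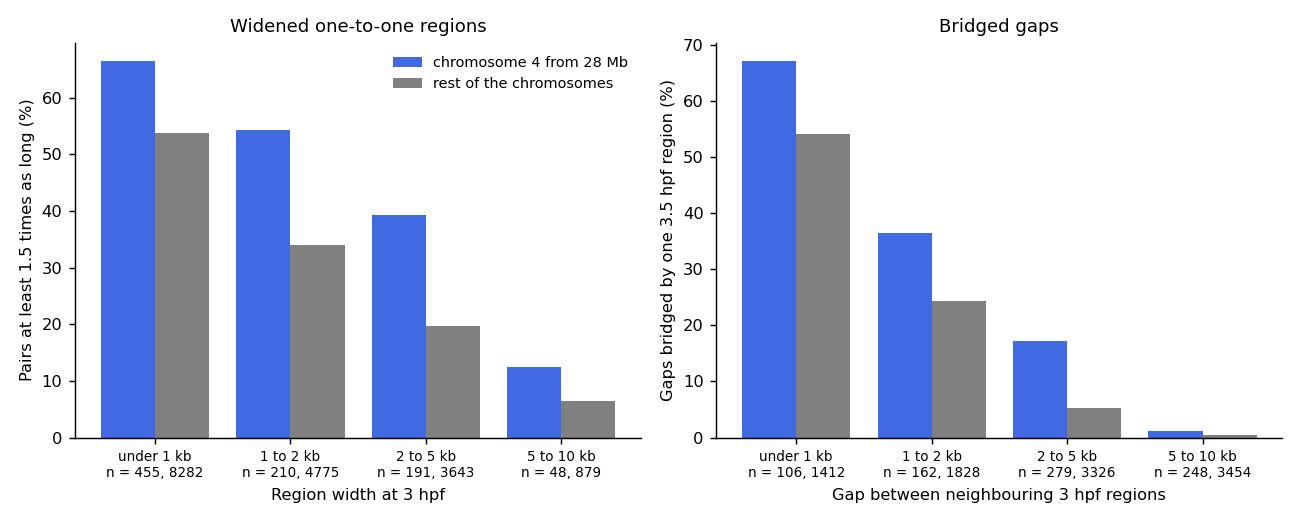
Left, the share (%) of one-to-one pairs at least 1.5 times as long at 3.5 hpf, by width at 3 hpf; right, the share (%) of gaps between neighbouring 3 hpf regions that a single 3.5 hpf region bridged, by gap length. Blue is chromosome 4 from 28 Mb, grey the rest, n gives arm and rest in that order, and the blue bar is the higher in all 8 classes, for example 66.4% against 53.7% of pairs under 1 kb.

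Within the arm the step was not the same everywhere. In stretches of 10 Mb the covered share was 2.56-fold higher from 30000001 to 40000000, 2.30-fold from 40000001 to 50000000, 2.24-fold from 50000001 to 60000000 and 2.50-fold from 60000001 to 70000000. From 70000001 to the end it was 1.66-fold higher, from 10.3% to 17.1%, in the stretch that was already the most covered at 3 hpf. Ahead of 28 Mb, chromosome 4 had 292 regions at 3 hpf and was 1.82-fold more covered at 3.5 hpf, below the arm and above each of the other 24 chromosomes. Its share of new regions, 51.6%, was close to the arm's. Its widened share, 42.4% of 184 pairs, and fused share, 7.39%, were nearer to the rest of the chromosomes than to the arm.

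The arm differed from the rest in the step after this one as well, but not in the same way in the step before. From 2.5 to 3 hpf the arm's covered share was 1.93-fold higher and that of the rest 2.02-fold, with 48.5% and 49.5% of pairs widened, and 8.23% and 8.57% of overlapping later regions fused. The kept share in that step was 56.1% on the arm and 67.5% elsewhere. From 3.5 to 4 hpf the folds were 1.49 and 1.25, 37.7% and 20.2% of pairs were widened, and 10.5% and 3.87% of overlapping later regions were fused. The widened share was thus higher on the arm than elsewhere in the 2 steps from 3 hpf on. In the step before, the 2 shares were close, 48.5% against 49.5%. With a single list per time this difference between steps was not tested, and the libraries behind the 2.5 hpf list are not stated.

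The outer 1 Mb of the chromosomes, although well covered, differed from the arm in this step. At the ends 76.7% of regions were kept, against 74.6% in the interior, and new regions were fewer in share, 37.8% against 48.9%. Widened pairs made up 34.1% at the ends and 40.1% in the interior, and covered length was 1.37-fold and 1.62-fold higher. Of the new regions at the ends, 45.9% lay within 5 kb of an earlier region, against 30.3% in the interior. The ends were also more covered at 3 hpf, 8.91% against 3.10%. The share of unmarked sequence within 5 kb was not computed for either area, so these 2 shares cannot be compared as a trait of new regions.

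In windows of 1 Mb the covered share was higher at 3.5 hpf in 1322 of 1343 windows and lower in 21. The median fold was 1.67, with quartiles of 1.44 and 2.03. When windows were put in 5 equal groups by their cover at 3 hpf, the fold of the mean cover was 2.16, 1.83, 1.76, 1.67 and 1.45 from the least to the most covered, while the median difference was 0.614, 0.937, 1.56, 2.43 and 3.45 percentage points. Windows with more of the mark thus added more length and a smaller multiple of what they had. The groups were set on the 3 hpf values that enter the fold, which favours a higher fold in the lowest. On the chromosome 4 arm 39 of 50 windows (78%) had at least 2-fold more cover, against 24.7% of the 1293 others, and 13 of the 50 windows with the largest difference lay on the arm, which holds 3.72% of all windows.

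The largest differences, at most 1 window per chromosome, were 10.2 percentage points at chromosome 4, 77000001 to 78000000, from 21.4% to 31.6%, and 9.95 points at chromosome 2, 14000001 to 15000000, from 20.4% to 30.4%. The window at chromosome 25, 26000001 to 27000000, went from 13.8% to 23.4%, that at chromosome 14, 13000001 to 14000000, from 19.7% to 29.2%, and that at chromosome 3, 50000001 to 51000000, from 11.5% to 20.9%. At 4 hpf these 5 windows were covered over 24.9% to 34.0%, and the chromosome 2 window, at 30.6%, differed little from its value at 3.5 hpf. The window with the largest decrease, chosen after its value was seen, lay at chromosome 8, 34000001 to 35000000, where 8.79% was followed by 7.79%.

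Beside the steps before and after it, the step from 3 to 3.5 hpf took a middle place in the shares that follow, with an exception named after them. Kept regions made up 66.8% of the earlier list from 2.5 to 3 hpf and 83.4% from 3.5 to 4 hpf. New regions made up 59.6% and 31.6% of the later list, and widened pairs 49.5% and 21.1%. The median pair ratio was 1.49 and 1.11, against 1.31 in between. Fused regions made up 8.56% and 4.23% of the overlapping later regions. New regions within 5 kb of an earlier one made up 26.0% and 38.6% of all new ones. The earlier list held 19207, 29303 and 39907 regions in the 3 steps, and a longer list puts more unmarked sequence within 5 kb. That unmarked share, 17.5% from 3 to 3.5 hpf, was not computed for the other steps, so the order of this share cannot be read as a change in where new regions lay. Gained length in overlapping regions was 45.8% and 57.3% of the gain, against 50.8%. The exception was the share of the gain inside fused regions, which at 9.24% was the lowest of the 3 steps, with 10.004% before and 9.29% after. In gained length the step was the largest of the 3, with 36.2 Mb against 28.4 and 28.2 Mb, while in fold it lay between them. None of these differences between steps could be tested, and the first step starts from the 2.5 hpf list, whose libraries are not stated.

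**Figure D5:**
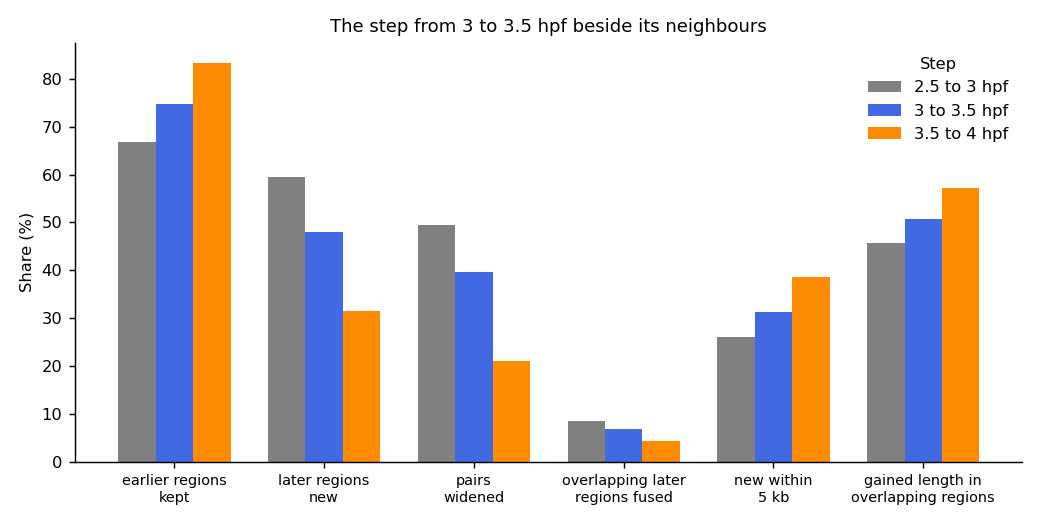
Shares (%) of kept, new, widened, fused and nearby new regions and of gained length in overlapping regions for the steps from 2.5 to 3, 3 to 3.5 and 3.5 to 4 hpf, 1 pooled list per time. In each set of bars the blue step from 3 to 3.5 hpf lies between its neighbours, as for kept regions with 66.8%, 74.8% and 83.4%. The share of nearby new regions is drawn without the unmarked share near earlier regions, which differs with the length of the earlier list.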

How the data were processed

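The authors deposited 1 region list per time, without a header. Judged from the values, each list gives positions and a region name, then a deposited score of at most 1000, a deposited signal and a deposited p-value. Per the submitters' processing notes, HOMER, bedtools, Picard, SAMtools, STAR and Trim Galore were used, with neither versions nor roles. Caller settings, genome build and use of the spike-in are not stated in these sources. A changed calling threshold or depth would alter list length and region width. The authors' score was not used, and their p-value ordered regions within a list only.

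Touching regions on chromosomes 1 to 25 were merged (Python 3.11.15, NumPy 2.4.6, pandas 2.3.3), and a merged region took its highest signal and lowest p-value. This left 29303 of 31563 chromosomal regions at 3 hpf and 39907 of 42117 at 3.5 hpf. Positions are counted from 1. Chromosome length is the furthest region end in any of the 6 lists. Distances run from edge to edge for regions and per base for unmarked sequence. A region belongs to the arm or a chromosome end by its start, and cover in windows and stretches counts the length inside them. The interval functions were tested on simulated lists with planted fates. No chance test was made, since each time is a single list. Named regions are the top 5 of each kind, at most 1 per chromosome. The comparison, its classes and its lists were chosen with earlier results of these data known.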

Additional observations from a re-analysis of the deposited data

Results flagged for a closer look

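No comparison above used the regions on unplaced scaffolds, 1193 at 3 hpf and 1540 at 3.5 hpf. They are given because both counts exceed 3, the limit set for a count of 0, with no control list beside them. Their share of the list was 3.64% and then 3.53%, on 446 and 509 scaffolds. They covered 1.70 and 2.65 Mb with median widths of 838 and 1011 bp, and nothing was tested for them.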

How the results depend on the processing

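Other settings gave 63 values, of which those for the arm's widened and fused ratios were chosen after the data were seen. Of these, 12 stayed within the 95% exact binomial interval of the main share, or within 1% for values that are no share of regions. The other 51 moved. A share has no direction that could reverse, so a reversal was possible only for the ratios of arm to rest, and none reversed. The share of gained length in overlapping regions, 50.8%, fell to 39.1%, 15.3% and 35.4% in settings described below. Intervals cover counting error only. No paired analysis was possible because the lists are pooled and hold no value per replicate, and leaving out a replicate was not possible for the same reason. Read depth limits every count and width here and is unknown.

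The kept share of 74.8% was 86.9% with regions of at least 1 kb, 64.0% with regions named primary, 71.6% with the 50% of each list with the lowest p-values, 62.1% with equal list lengths and 69.4% when 50% of a region had to be covered. In the settings of at least 1 kb, primary regions and lowest-p 50%, both lists were cut first. A region then counts as kept only if it met a later region left in, and a later region counts as fused only if several earlier regions it met were left in. Against the full 3.5 hpf list, 96.4% of the 6259 primary regions were kept. With equal list lengths only the 3.5 hpf list was cut, from 39907 to 29832 regions, so fewer 3 hpf regions could be met. The new share of 48.0% was 66.0% with primary regions, 49.4% with the lowest-p 50%, 41.7% with equal lengths, 47.2% after merging within 1 kb and 62.4% with 50% overlap. The fused share of 6.93% was 5.004% with regions of at least 1 kb, 0.500% (20 regions) with primary ones, 2.93% with the lowest-p 50%, 5.70% with equal lengths, 4.79% after merging within 1 kb and 6.55% without chromosome 4. The widened share of 39.6% was 30.7%, 27.97%, 38.6% and 42.3% in the first 4 of these settings, 38.7% without chromosome 4, 58.8% from a ratio of 1.2 and 21.9% from a ratio of 2. The share of new regions within 5 kb, 31.3%, was 16.2%, 9.41%, 18.5% and 33.6% in the first 4 settings, 28.7% after merging within 1 kb, 14.7% within 2 kb and 48.05% within 10 kb. The share of gained length in overlapping regions, 50.8%, was 39.1%, 15.3%, 35.4% and 50.2% in the first 4 settings, 52.7% after merging within 1 kb and 50.3% without chromosome 4. With regions of at least 1 kb, primary regions and the lowest-p 50%, regions counted as new held most of the gain. Because both lists were cut, a 3.5 hpf region over a left-out 3 hpf region counts as new there. Of the 11785 primary regions at 3.5 hpf, 7783 were new in the primary setting, against 2024 in the full lists. These settings therefore cannot tell growth from a left-out region apart from a region with no earlier overlap.

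The covered fold on the chromosome 4 arm relative to the rest, 1.34, was 1.47, 1.62, 1.43 and 1.28 in the first 4 settings and 1.32 with the arm from 25 Mb. The ratio of widened shares, arm to rest, 1.41 as reported, was 1.64 with regions of at least 1 kb, 1.59 with primary ones, 1.46 with the lowest-p 50%, 1.48 after merging within 1 kb, and 1.39 with the arm from 25 or from 30 Mb. The ratio of fused shares, 2.08, was 1.87 with regions of at least 1 kb, 1.46 with primary ones, 1.94 with equal lengths and 2.23 after merging within 1 kb. The arm stayed above the rest in all of these settings, by all 3 ratios. The fused ratio with primary regions rests on only 20 fused regions among 4002 overlapping ones on all chromosomes. That is too few to compare the arm with the rest.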
